A study of Mus musculus with 37 samples.

Results

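The activity-induced synaptic effector genes described here are Arc, Homer1, Nptx1, Nptx2, Nptxr, Ptgs2 and Plk2, measured in the cortex of 9-week-old mice. They were found by gene symbol. Of 45037 probe sets on the array (a probe set is a group of short probes that reads 1 transcript region), 15 were annotated to 1 of these genes alone and covered 6 of the 7. The remaining 3 were annotated to Nptxr together with Npcd, a readthrough gene that shares its 3′ end with Nptxr in the RefSeq annotation. They are described as Nptxr/Npcd probe sets and kept out of the counts, because their signal cannot be given to 1 of the 2 genes.

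The mice were of mixed CBA X C57Bl/6 strain, at the age of 9 weeks, and the labels gave each array 1 sex. They do not say outright that every array held a separate animal, and where 2 arrays shared one, p measures technical spread. WT mice (9 arrays) carried neither mutation. R6/2 mice (9 arrays) were hemizygous for a transgene that encodes exon 1 of mutant human huntingtin with an expanded CAG repeat, driven by the human huntingtin promoter, so that they model a short fragment of the protein and not the whole gene. Hdac4HET mice (9 arrays) carried 1 null allele of the histone deacetylase gene Hdac4 in all cells, and Dble::R6/2 mice (10 arrays) carried the transgene and the null allele. The labels gave 4 females and 5 males in each genotype, except for 5 and 5 in Dble::R6/2. The question was whether the transgene altered these genes in the cortex and whether 1 null Hdac4 allele altered them with or without the transgene.

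Neurons switch most of these genes on within minutes to hours of synaptic activity, through calcium signals that reach CREB, SRF, MEF2 and the immediate early factors of the Fos, Egr and Nr4a families. Their products act at the synapse itself. Arc drives the removal of AMPA-type glutamate receptors from the spine surface, the neuronal pentraxins Nptx1 and Nptx2 gather AMPA receptors from outside the cell and are anchored by the membrane-bound Nptxr, Homer1 encodes long scaffolds of the postsynaptic density and a short activity-induced form that uncouples them, Plk2 is a kinase that weakens synapses after prolonged activity, and Ptgs2 encodes the inducible cyclooxygenase that begins prostaglandin synthesis.

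Promoter entries of RefSeq (GRCm38.p6) were matched for 3 of the 7 genes, namely Homer1 with 2 start sites, Plk2 and Ptgs2. In the 250 bases before each start, matches to the cAMP response element that CREB binds (TGACGTCA) or its short core (TGACG) were searched on both strands. The last 100 bases before the first Homer1 start and before the Plk2 start are shown because they held such matches, with the matched bases in capitals.
Homer1 (chr13:93303657-93303756, plus strand): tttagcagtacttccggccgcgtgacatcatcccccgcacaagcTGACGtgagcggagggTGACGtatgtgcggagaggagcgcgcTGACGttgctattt
Plk2 (chr13:110394944-110395043, plus strand): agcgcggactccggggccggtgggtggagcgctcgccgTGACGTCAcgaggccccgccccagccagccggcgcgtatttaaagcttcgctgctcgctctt
The first Homer1 start had 3 short cores, at positions -56 to -52, -40 to -36 and -14 to -10 counted back from the start. Among all 32851 promoter entries, 17.8% held at least 1 short core in a window of this length and 0.688% held 3 or more. The Plk2 window had 1 full element at positions -62 to -55, which 1.55% of the entries held, and its 2 short cores, 1 on each strand, lay inside that same palindrome. The windows of Ptgs2 and of the second Homer1 start held neither sequence. None of the 4 windows held an E box (CACGTG), a CArG box of SRF or a MEF2 box.

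The arrays were closely matched, with log2 medians of 6.16 to 6.21 and correlations of 0.993 to 0.998 inside each genotype. The brightest Hdac4 probe set read 8.28 to 8.64 in WT and 8.31 to 8.55 in R6/2, against 7.80 to 8.02 in Hdac4HET and 7.70 to 7.98 in Dble::R6/2, so the array levels of Hdac4 fitted every label. The labelled sex was contradicted by the sex-linked genes on 6 arrays (1 WT, 3 Hdac4HET, 2 Dble::R6/2). Of these, 2 Hdac4HET arrays read the genes of both sexes, replicate 5 with Xist at 11.21 beside a Y-linked mean of 6.56 and replicate 9 with 11.67 beside 5.89, where the other arrays high in Xist had Y-linked means of at most 3.89. RNA of 1 mouse is therefore not established for these 2. On 7 arrays (6 Hdac4HET, 1 Dble::R6/2) the mean of 7 olfactory bulb markers stood above every WT array. The 6 differing Hdac4HET arrays, which include both of those, touch each comparison that uses that genotype. Differences without the 7 arrays are given for some probe sets, and in Dble::R6/2 against Hdac4HET for Arc alone. The differences of Homer1 and Ptgs2 in that comparison include the 7 arrays and may also move without them.

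Of the 6 genes in the counts, 4 were lower wherever the transgene was present and none rose. Calls needed a level change of more than 1.3-fold and a limma p below 0.05 after Benjamini-Hochberg adjustment across the 45037 probe sets. In R6/2 against WT, 8 of the 15 probe sets fell and 0 rose, beside 3.03% of all probe sets called lower and 3.05% called higher. These 8 read Arc, Homer1, Nptx2 and Ptgs2. In Dble::R6/2 against Hdac4HET, which shares no array with the first comparison, 10 of 15 fell and 0 rose, beside 5.07% and 2.02% of all probe sets. Bulb markers moved with this second comparison, since 7 of 7 were called lower (median -1.45), and the 4 choroid plexus markers had a median of 0.60 with none called. Without the 7 arrays the count was again 10. All 8 probe sets called in the first comparison were called in the second, and the other 2 were the Homer1 probe sets 1437363_at and 1439662_at. The median difference over the 15 probe sets was -0.49 in R6/2 against WT and -0.42 in Dble::R6/2 against Hdac4HET on the log2 scale, where the median over all probe sets was -0.02 and 0.02. Counted by the brightest probe set of each gene, 3 of 6 genes fell in the first comparison and 4 of 6 in the second, beside 3.3% and 4.08% of all genes called lower and 3.75% and 2.6% called higher. Bulk cortex was measured, so fewer cells of a type and less RNA per cell cannot be told apart.

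**Figure D1:**
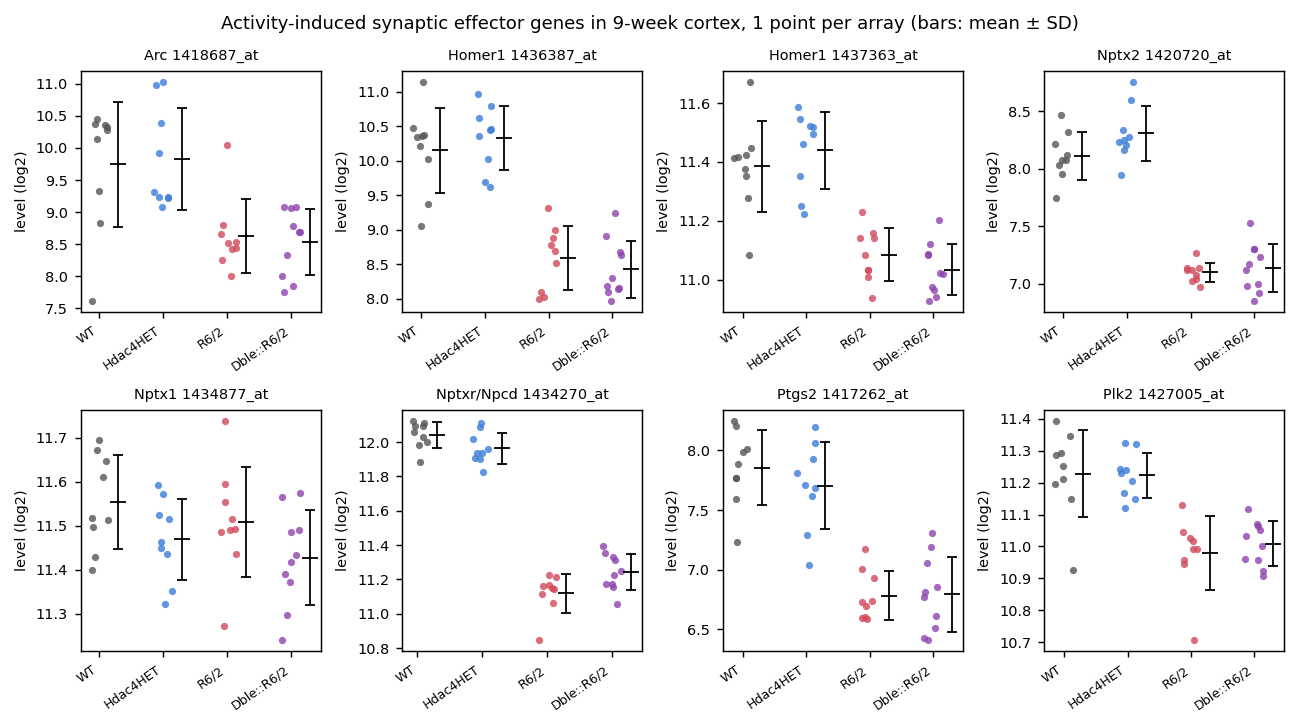
Level (log2) of 8 member probe sets on each of the 37 arrays, grouped by genotype, with the mean and SD beside the points. All genes but Nptx1 sit lower in R6/2 and Dble::R6/2, and the R6/2 arrays lie wholly below WT for Nptx2 1420720_at, Nptxr/Npcd 1434270_at and Ptgs2 1417262_at.

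**Figure D2:**
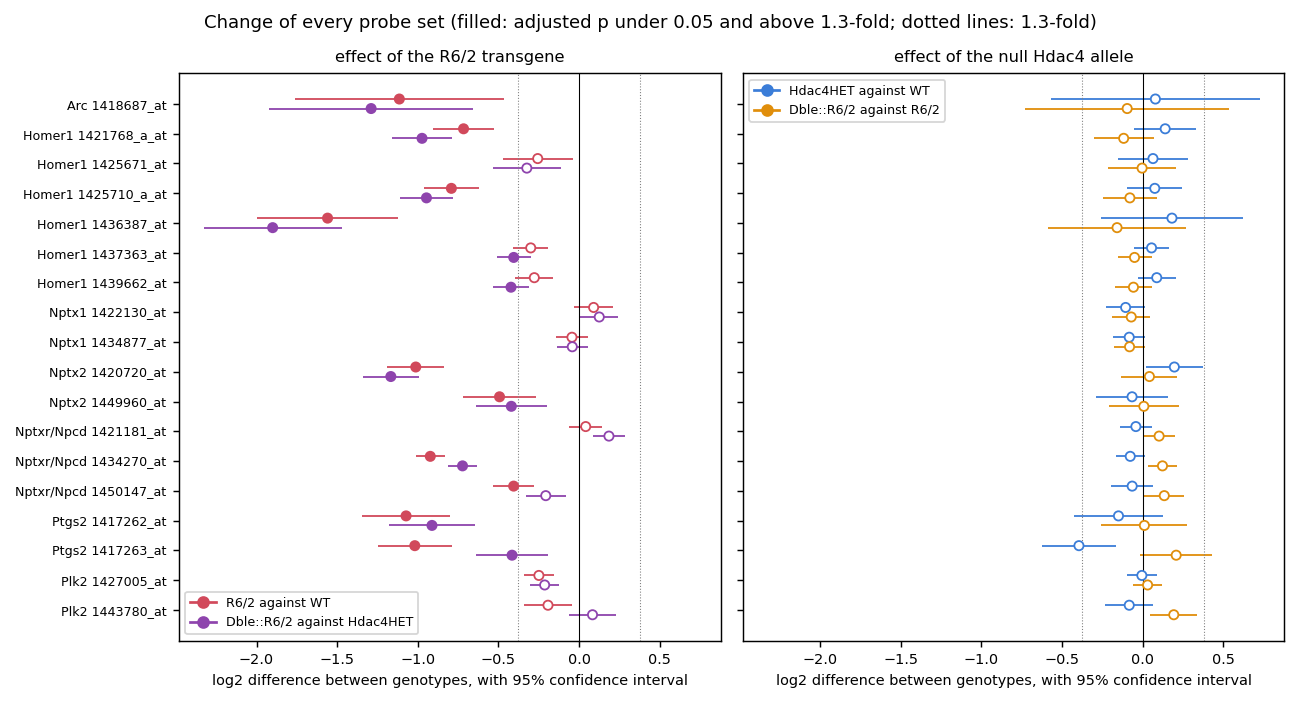
Difference in log2 level with its 95% confidence interval for all 18 probe sets, with the transgene comparisons on the left and the null allele comparisons on the right. Filled points passed an adjusted p under 0.05 and a 1.3-fold change, and all of them lie left of 0 among the transgene comparisons.

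Arc, the endocytic regulator, was read by 1 probe set, 1418687_at. Its log2 level ran from 7.62 to 10.45 in WT with a median of 10.29, and from 8.01 to 10.05 in R6/2 with a median of 8.52. In Hdac4HET it ran from 9.09 to 11.03 with a median of 9.32, and in Dble::R6/2 from 7.76 to 9.08 with a median of 8.70. R6/2 and WT overlapped at both ends, since WT replicate 3 was the lowest of all 37 arrays and R6/2 replicate 5 stood among the WT arrays, whereas every Dble::R6/2 array lay below every Hdac4HET array. Arc fell by 1.11 on the log2 scale (SE 0.32, adjusted p = 0.00505, limma) in R6/2 against WT, a level 2.17 times lower. In Dble::R6/2 against Hdac4HET it fell by 1.29 (SE 0.31, adjusted p = 0.000973, limma), and the difference was -1.82 (adjusted p = 0.00292, limma) when the 7 arrays were left out that had raised olfactory bulb markers. Leaving out each array in turn kept the first value between -1.38 and -1.03.

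Homer1, the postsynaptic scaffold, was read by 6 probe sets with unequal differences, of which 3 were called in R6/2 against WT and 5 in Dble::R6/2 against Hdac4HET. Which of the long and short transcripts each one reads is not stated in the sources. Probe set 1436387_at moved the most. It ran from 9.05 to 11.15 in WT (median 10.34) and from 7.995 to 9.32 in R6/2 (median 8.70), so that only the ends of the ranges met. In Hdac4HET it ran from 9.62 to 10.97 (median 10.44) and in Dble::R6/2 from 7.98 to 9.24 (median 8.24), with no overlap. Its level fell by 1.56 (SE 0.22, adjusted p = 2.36e-07, limma) in R6/2 against WT, 2.95 times lower, and by 1.90 (SE 0.21, adjusted p = 2.22e-09, limma) in Dble::R6/2 against Hdac4HET, 3.73 times lower. Those were the largest differences of any member probe set in both comparisons.

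Homer1 probe sets 1421768_a_at and 1425710_a_at, which tracked each other across the arrays (within-genotype r = 0.88), fell by 0.72 and 0.79 in R6/2 against WT and by 0.97 and 0.95 in Dble::R6/2 against Hdac4HET. For 1425710_a_at the 9 R6/2 arrays (7.58 to 8.20) lay below the 9 WT arrays (8.50 to 9.12), and the same held for 1421768_a_at (6.68 to 7.42 against 7.46 to 8.17). The brightest probe set, 1437363_at, was lower by a smaller amount. It ran from 11.08 to 11.67 in WT and from 10.94 to 11.23 in R6/2, a difference of -0.30 (SE 0.05, adjusted p = 1.76e-05, limma) that stayed under the 1.3-fold threshold. Between Hdac4HET and Dble::R6/2 it fell by 0.41 (adjusted p = 4.86e-08, limma), just past the threshold, and the groups (10.93 to 11.20 against 11.22 to 11.59) did not overlap. Probe set 1439662_at behaved alike, with -0.28 (adjusted p = 0.000163, limma) and a fall of 0.42 (adjusted p = 1.05e-07, limma). The sixth, 1425671_at, was dim, with a mean level of 3.40 where the lowest 5% of probe sets ended at 3.22, and was not called in any comparison.

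The unequal sizes within Homer1 were tested as differences between 2 probe sets on the same array. Exact permutation tests were run for 8 such pairs in 4 comparisons, all chosen after the values had been seen, and p was adjusted over the 32 tests. The level of 1436387_at minus that of 1437363_at averaged -1.23 ± 0.49 (SD, n = 9) in WT and -2.49 ± 0.38 (SD, n = 9) in R6/2, lower by 1.26 in R6/2 (two-sided exact permutation p = 0.000123, adjusted p = 0.000394). The same quantity differed in Dble::R6/2 against Hdac4HET by -1.49 (two-sided exact permutation p = 1.08e-05, the smallest these groups allow, adjusted p = 8.64e-05). Across all 37 arrays the 2 probe sets nevertheless rose and fell together (r = 0.96), and 1436387_at changed by 4.50 for each log2 unit of 1437363_at. Within genotypes the slope was less steep, at 3.58 (r = 0.86). The gap between the probe sets thus widened as both went down, and whether the genotypes lay on 1 shared line was not tested.

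**Figure D3:**
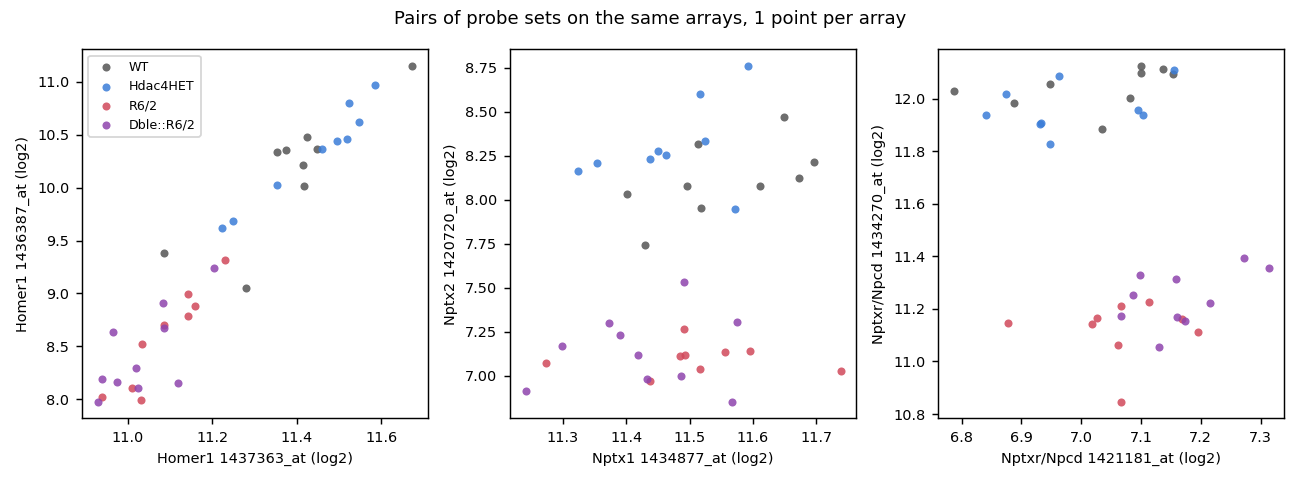
Levels (log2) of 2 probe sets plotted against each other on the same arrays, 1 point per array and 1 colour per genotype, for Homer1, for Nptx2 against Nptx1 and for Nptxr/Npcd. The 2 Homer1 probe sets rise together across the arrays, while in the other panels R6/2 and Dble::R6/2 lie lower on the vertical axis at similar values of the horizontal axis.

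The neuronal pentraxins, close relatives that bind AMPA receptors, parted from each other. Nptx2 probe set 1420720_at ran from 7.74 to 8.47 in WT (median 8.08) and from 6.97 to 7.27 in R6/2 (median 7.12). It ran from 7.95 to 8.76 in Hdac4HET (median 8.25) and from 6.85 to 7.53 in Dble::R6/2 (median 7.14). Arrays with and without the transgene did not overlap. Nptx2 fell by 1.01 (SE 0.09, adjusted p = 6.13e-12, limma) in R6/2 against WT, 2.02 times lower, and by 1.17 (SE 0.09, adjusted p = 7.01e-14, limma) in Dble::R6/2 against Hdac4HET. Its second, dimmer probe set 1449960_at fell by 0.49 and 0.42. The dimmer probe set moved less, with a difference between the 2 readings of -0.52 in R6/2 against WT (two-sided exact permutation p = 0.000123, adjusted p = 0.000394, n = 9 and 9).

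Nptx1 was not called in any comparison. Its brightest probe set, 1434877_at, ran from 11.40 to 11.70 in WT, 11.27 to 11.74 in R6/2, 11.32 to 11.59 in Hdac4HET and 11.24 to 11.57 in Dble::R6/2. These ranges overlapped throughout. The difference of R6/2 against WT was -0.04 (95% confidence interval -0.14 to 0.05), and that of the other probe set, 1422130_at, was 0.09 (95% confidence interval -0.03 to 0.21), so that neither interval reached a 1.3-fold change. The level of Nptx2 minus that of Nptx1 on the same array was lower by 0.97 in R6/2 than in WT (two-sided exact permutation p = 4.11e-05, the smallest that 9 against 9 allows, adjusted p = 0.000219) and lower by 1.12 in Dble::R6/2 than in Hdac4HET (two-sided exact permutation p = 1.08e-05, adjusted p = 8.64e-05).

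The 3 Nptxr/Npcd probe sets disagreed with each other. The brightest, 1434270_at, ran from 11.89 to 12.12 in WT, 11.83 to 12.11 in Hdac4HET, 10.85 to 11.23 in R6/2 and 11.05 to 11.39 in Dble::R6/2, so the groups with and without the transgene did not overlap. It fell by 0.92 (SE 0.04, adjusted p = 8.12e-19, limma) in R6/2 against WT, 1.90 times lower, and by 0.72 (SE 0.04, adjusted p = 2.72e-16, limma) in Dble::R6/2 against Hdac4HET. Probe set 1450147_at fell by 0.41 (adjusted p = 1.99e-06, limma) in R6/2 against WT and was lower by 0.21, under the threshold, in Dble::R6/2 against Hdac4HET. The third, 1421181_at, was not lower at all, at 0.04 (adjusted p = 0.552, limma) and 0.18 (adjusted p = 0.00233, limma, under 1.3-fold). The difference between 1434270_at and 1421181_at shrank by 0.96 in R6/2 against WT (two-sided exact permutation p = 4.11e-05, the smallest that 9 against 9 allows, adjusted p = 0.000219). Whether the 3 probe sets read Nptxr, Npcd or both could not be settled here.

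Ptgs2, the inducible cyclooxygenase, was read by 2 probe sets. The brighter, 1417262_at, ran from 7.23 to 8.25 in WT (median 7.89) and from 6.58 to 7.17 in R6/2 (median 6.73), without overlap. It ran from 7.04 to 8.20 in Hdac4HET (median 7.71) and from 6.41 to 7.30 in Dble::R6/2 (median 6.79), where the ends of the ranges met. It fell by 1.07 (SE 0.14, adjusted p = 3.21e-08, limma) in R6/2 against WT, 2.10 times lower, and by 0.91 (SE 0.13, adjusted p = 4.88e-07, limma) in Dble::R6/2 against Hdac4HET. The dimmer probe set, 1417263_at, fell by 1.02 (SE 0.11, adjusted p = 2.58e-09, limma) in R6/2 against WT but by 0.42 (SE 0.11, adjusted p = 0.00268, limma) in Dble::R6/2 against Hdac4HET. The 2 probe sets did not part detectably in R6/2 against WT (difference of -0.05, two-sided exact permutation p = 0.666, adjusted p = 0.789) and parted by 0.50 in Dble::R6/2 against Hdac4HET (two-sided exact permutation p = 0.00148, adjusted p = 0.00395).

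Plk2, the kinase of synaptic weakening, was lower by a small amount. Probe set 1427005_at ran from 10.93 to 11.39 in WT (median 11.25) and from 10.71 to 11.13 in R6/2 (median 10.99), and from 11.12 to 11.33 in Hdac4HET against 10.91 to 11.12 in Dble::R6/2. The difference was -0.25 (SE 0.05, adjusted p = 2.93e-05, limma) in R6/2 against WT and -0.21 (SE 0.04, adjusted p = 0.000177, limma) in Dble::R6/2 against Hdac4HET. Both passed on p and neither reached 1.3-fold, although every Dble::R6/2 array lay below every Hdac4HET array. The dim second probe set, 1443780_at, gave -0.19 and 0.08 and followed the first only weakly across arrays (within-genotype r = 0.11).

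Over the members, every R6/2 array lay below every WT array for 5 of the 15 probe sets (both of Ptgs2, Nptx2 1420720_at and Homer1 1421768_a_at and 1425710_a_at), where 2.73% of all probe sets showed this. In Dble::R6/2 against Hdac4HET this held for 7 (Arc, Nptx2 1420720_at, Plk2 1427005_at and Homer1 1421768_a_at, 1425710_a_at, 1436387_at and 1437363_at), beside 3.55% of all probe sets. The Nptxr/Npcd probe set 1434270_at showed it in both.

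No probe set of these genes was called for the null Hdac4 allele. In Hdac4HET against WT, 0 of the 15 probe sets were called by limma, 2 had an unadjusted p under 0.05, and 0.291% of all probe sets were called either way. Those 2 were Ptgs2 1417263_at, lower by 0.40 (SE 0.11, adjusted p = 0.064, limma), and Nptx2 1420720_at, higher by 0.20 (SE 0.09, adjusted p = 0.248, limma). Ptgs2 1417263_at ran from 5.09 to 6.17 in WT and from 4.85 to 5.77 in Hdac4HET, ranges that overlapped widely. When the arrays high in bulb markers were left out, the difference of this Ptgs2 probe set was -0.21 (adjusted p = 0.759, limma, with 3 Hdac4HET arrays left). That of Nptx2 was then 0.32 (adjusted p = 0.498, limma). Arc moved further, from 0.08 to 0.67 (adjusted p = 0.736, limma), and Homer1 1436387_at from 0.18 to 0.58 (adjusted p = 0.628, limma). Ptgs2 1417262_at went from -0.15 to 0.14 and Nptx1 1422130_at from -0.11 to 0.07, and none of these was called with or without those arrays. Olfactory bulb tissue moved with this comparison: 7 of 7 bulb markers were called higher in Hdac4HET against WT, with means per array of 5.02 to 8.40 against 4.96 to 5.30. The 4 choroid plexus markers were all lower (-1.03 to -0.64, median -0.74) and the 4 measured striatum markers all higher (0.26 to 0.55, median 0.31), with none called. The part of these tissues in the values was not tested.

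In Dble::R6/2 against R6/2, 0 of the 15 probe sets were called by limma, 1 had an unadjusted p under 0.05, and 0.269% of all probe sets were called either way. The differences ran from -0.16 for Homer1 1436387_at to 0.21 for Ptgs2 1417263_at. For 13 probe sets the 95% confidence intervals lay within -0.30 and 0.43. They were wider for Homer1 1436387_at (-0.59 to 0.27) and for Arc (-0.73 to 0.53), which varied more between arrays, so a change of Arc within that interval was not excluded. The Nptxr/Npcd probe sets, kept out of these counts, were all higher in Dble::R6/2, and none was called. Probe set 1434270_at was higher by 0.12 (SE 0.04, adjusted p = 0.122, limma). Probe set 1450147_at was higher by 0.13 (adjusted p = 0.257, limma) and 1421181_at by 0.10 (adjusted p = 0.278, limma). Each of them had an unadjusted limma p under 0.05.

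No member was called for a different effect of the transgene with the null allele, and 1 probe set lay at the threshold. For the interaction term 0 of 15 probe sets were called by limma and 2 had an unadjusted p under 0.05, beside 0.251% of all probe sets called. Ptgs2 1417263_at came closest, with 0.60 (SE 0.16, adjusted p = 0.051, limma). It was called when any 1 of 8 arrays was left out, at 0.59 to 0.68, whereas without the 7 arrays high in bulb markers it was 0.40 (adjusted p = 0.488, limma). The other Ptgs2 probe set, 1417262_at, gave 0.16 (SE 0.19, adjusted p = 0.671, limma). Without those 7 arrays the interaction of Arc went from -0.17 to -0.71 (adjusted p = 0.695, limma) and that of Homer1 1436387_at from -0.34 to -0.69 (adjusted p = 0.541, limma). With all arrays, every Nptxr/Npcd probe set had a positive interaction with an unadjusted limma p under 0.05, and none was called. The values were 0.20 for 1434270_at (adjusted p = 0.0801, limma) and 0.20 for 1450147_at (adjusted p = 0.212, limma). Probe set 1421181_at gave 0.14 (adjusted p = 0.254, limma). For the interaction with labelled sex 0 of 15 were called, 0 had an unadjusted p under 0.05 and 0% of all probe sets were called. Homer1 1436387_at had the largest value, with a difference of R6/2 against WT of -1.82 in males and -1.23 in females (interaction 0.59, SE 0.44, adjusted p = 0.997, limma). It was 0.28 without WT replicate 9, labelled female with sex-linked genes against the label, and 0.98 without WT replicate 6. Comparisons that use the same genotype share its arrays, as R6/2 against WT and Hdac4HET against WT share the WT arrays.

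Arrays of 1 genotype differed widely in some of these genes and little in others. The SD of the level within genotypes was 0.73 for Arc, above 99.8% of all genes, and 0.31 for Ptgs2 and 0.20 for Nptx2. By their brightest probe sets, Homer1, Nptx1 and Plk2 gave 0.12, 0.11 and 0.10, near the median gene at 0.12. Homer1 1436387_at varied more, with an SD of 0.62 in WT, 0.47 in Hdac4HET, 0.47 in R6/2 and 0.41 in Dble::R6/2. The genes that moved most like each member across arrays were ranked by the Pearson r of the deviations from the genotype means over all 37 arrays, as a description. Each r was the highest among 18193 genes, and all genes of an array share its tissue sample and its hybridisation.

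Arc moved with the rapid immediate early genes. Its nearest genes were the nuclear receptor Nr4a1 (r = 0.96, Spearman's rho = 0.94), Fos (r = 0.95, rho = 0.93) and the phosphatase Dusp1 (r = 0.94, rho = 0.93), and without the 2 arrays farthest from the median r was 0.93, 0.92 and 0.91. WT replicate 3, lowest in Arc at 7.62, was also lowest among WT in Fos at 8.27 and Nr4a1 at 9.14. The same array was among the higher WT arrays in Homer1 1436387_at, at 10.48. R6/2 replicate 5, highest of its genotype in Arc, was likewise highest in Fos at 10.74 and in Nr4a1 at 10.52.

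Arc was nonetheless lower in R6/2 at like levels of Fos, which was not shown for Nr4a1 or Dusp1. Within genotypes Arc changed by 1.03 for each log2 unit of Fos. Fos itself was lower in R6/2 by 0.53 and was not called (adjusted p = 0.152, limma). The level of Arc minus that of Fos on the same array averaged -0.25 ± 0.23 in WT and -0.84 ± 0.20 in R6/2 (SD, n = 9 each), lower by 0.58 in R6/2 (two-sided exact permutation p = 0.000123, adjusted p = 0.000394). It was lower by 0.67 in Dble::R6/2 against Hdac4HET (two-sided exact permutation p = 8.66e-05, adjusted p = 0.000394). Against Nr4a1 the shift was -0.48 (two-sided exact permutation p = 0.00958, adjusted p = 0.0214) and against Dusp1 -0.37 (two-sided exact permutation p = 0.0598, adjusted p = 0.113). These 2 genes themselves fell by 0.64 and 0.74 in R6/2 against WT, and Arc changed by 1.60 and 1.77 per log2 unit of them within genotypes. Their differences from Arc thus move with the level itself and cannot show whether Arc was lower at like levels of Nr4a1 or Dusp1. Across all 37 arrays Arc changed by 1.71 per log2 unit of Nr4a1 and 1.66 of Dusp1 (r = 0.97 for each), near the slopes within genotypes. Whether the genotypes lay on 1 shared line was not tested.

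**Figure D4:**
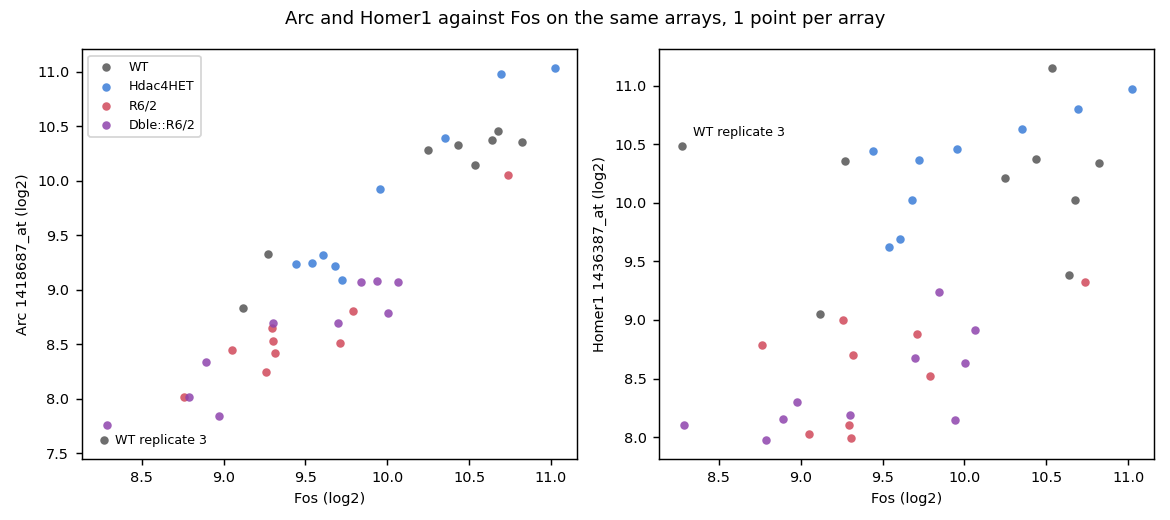
Arc (left) and Homer1 1436387_at (right) against Fos on the same arrays, all in log2 units, 1 point per array. Arc follows Fos within every genotype with the R6/2 and Dble::R6/2 points mostly lower at the same Fos, and WT replicate 3 is lowest in Fos and Arc but not in Homer1.

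The other members followed different genes. The nearest genes of Ptgs2 were Egr1 (r = 0.80), Egr3 (r = 0.79) and Klf10 (r = 0.79). Homer1 was nearest to Serinc2 (r = 0.82), Lingo1 (r = 0.81) and the calcium pump gene Atp2a2 (r = 0.79), and of the 19 immediate early factors its probe set 1436387_at followed Egr3 most closely (r = 0.82) and Nr4a1 less (r = 0.37). Nptx2 was nearest to the activity-regulated neuritin gene Nrn1 (r = 0.76), Ang2 (r = 0.74) and the spine actin binder Dbn1 (r = 0.72). Of the 19 factors it followed Crem (r = 0.55) and Jun (r = 0.50) most closely, and showed no like movement with Fos (r = -0.01) or Egr1 (r = 0.05). Nptx1 was nearest to Map3k5 (r = 0.85), Osbpl1a (r = 0.84) and the potassium channel subunit Kcnmb4 (r = 0.82), and Plk2 to Ier5 (r = 0.68), Serinc2 (r = 0.68) and Ndel1 (r = 0.67). Of these genes, Nrn1 fell by 0.86 (adjusted p = 5.32e-17, limma) and Lingo1 by 0.91 (adjusted p = 9.2e-17, limma) in R6/2 against WT, Klf10 fell by 0.76 (adjusted p = 1.65e-06, limma), and Nptx1's 3 neighbours were not called. Among the members themselves the pairs ran from -0.08 for Arc with Nptx2 to 0.66 for Homer1 with Ptgs2.

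**Figure D5:**
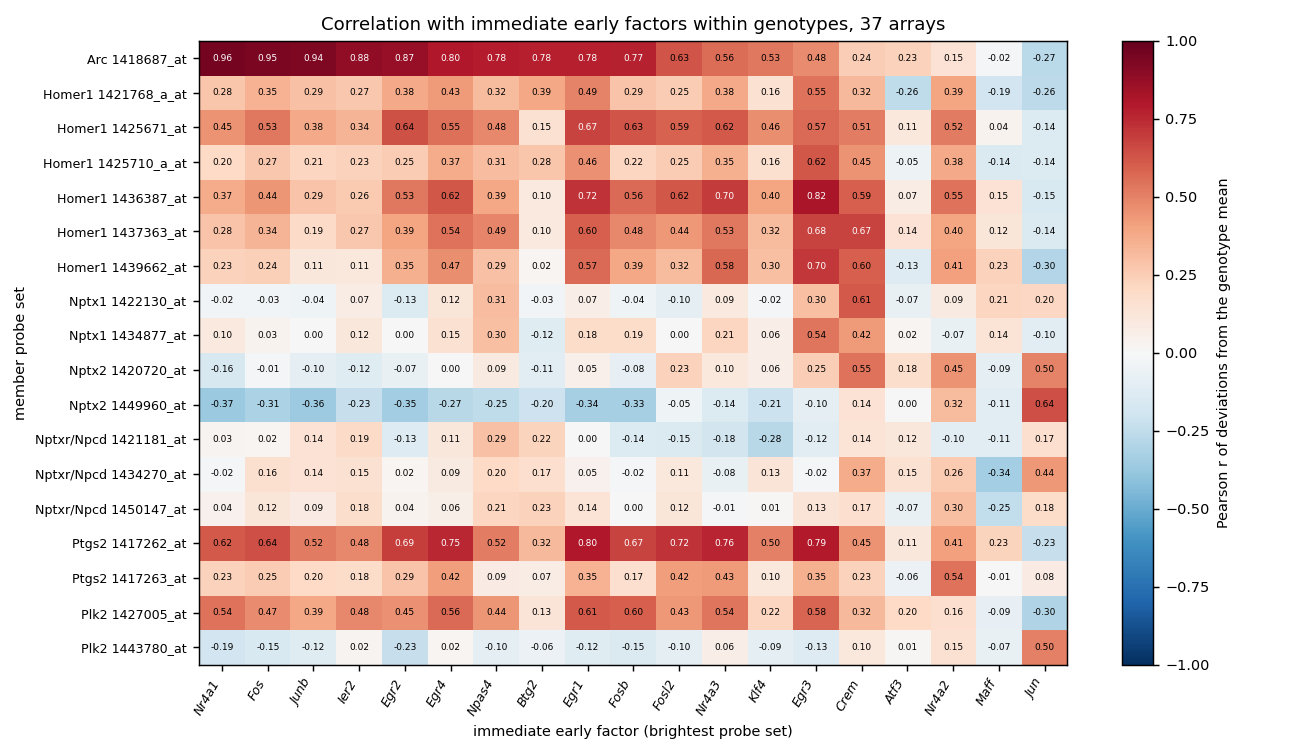
Pearson r between the deviations from the genotype means of each member probe set (rows) and of 19 immediate early factors (columns, ordered by their r with Arc) over 37 arrays. Arc reaches 0.96 with Nr4a1 and Ptgs2 1417262_at 0.80 with Egr1, Homer1 1436387_at is highest with Egr3, and the pentraxin rows stay low against Fos and Nr4a1.

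Several immediate early factors, some of which switch these genes on, were also lower with the transgene. Of 19 immediate early genes, most of them transcription factors, 10 fell and 0 rose in R6/2 against WT (median difference -0.45). In Dble::R6/2 against Hdac4HET 10 fell and 0 rose (median -0.43). In these comparisons 3.3% and 4.08% of all genes were called lower. Egr2 fell by 2.06 (SE 0.40, adjusted p = 6.33e-05, limma), Btg2 by 0.90, Egr3 by 0.58 and Nr4a2 by 0.46 in R6/2 against WT. Of 24 other activity-induced effectors, 8 fell and 0 rose in R6/2 against WT and 13 fell and 0 rose in Dble::R6/2 against Hdac4HET. Among the 8 were the growth factor Bdnf (a fall of 0.54), the activin subunit Inhba (0.62), Gadd45b (0.51) and Nrn1. The paper describes Bdnf as absent from the arrays and measured it by qPCR at a later age, whereas a probe set annotated to Bdnf was read here.

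Of the synaptic machinery around the members, single genes were called, where 3.3% of all genes were called lower in R6/2 against WT. Of 10 AMPA receptor subunits and auxiliaries only the auxiliary Cacng3 fell in R6/2 against WT, by 0.63 (adjusted p = 7.12e-14, limma), and it also fell by 0.45 in Dble::R6/2 against Hdac4HET. All 10 had a negative difference, with a median of -0.21. Of 6 measured genes listed around the Homer scaffolds, whether or not they bind Homer directly, the scaffold gene Dlg4 fell by 0.44 (adjusted p = 4.15e-13, limma). Of 9 Arc partners in endocytosis and spines the kinase gene Camk2a fell by 0.45 (adjusted p = 9.94e-18, limma). None of 3 measured Plk2 substrates was called in R6/2 against WT, with Sipa1l1 lower by 0.38, just under the threshold, and Rapgef2 at 0.03. Sipa1l1 was called in Dble::R6/2 against Hdac4HET, where it fell by 0.46 (adjusted p = 3.13e-17, limma).

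Around Ptgs2, 1 of 11 genes of prostaglandin synthesis and receptors fell in R6/2 against WT and 2 rose, beside 3.3% of all genes called lower and 3.75% called higher. Pla2g4a, the phospholipase that frees arachidonic acid, rose by 0.44 (adjusted p = 0.000106, limma), Hpgd, which degrades prostaglandins, rose by 0.52 (adjusted p = 0.00604, limma), and the receptor gene Ptger3 fell by 0.43 (adjusted p = 0.000682, limma). Ptger3 also fell by 0.44 (adjusted p = 0.000371, limma) in Dble::R6/2 against Hdac4HET, while neither rise was called there, with Pla2g4a at 0.37 (adjusted p = 0.000764, limma, under 1.3-fold) and Hpgd at 0.17 (adjusted p = 0.426, limma). Among the family relatives, Homer2 was lower by 0.22, under the threshold, and Homer3 gave -0.01 in R6/2 against WT. The Polo-like kinases parted from Plk2 and from each other, since Plk5 fell by 1.21 (adjusted p = 2.09e-18, limma), Plk4 rose by 0.62 (adjusted p = 2.37e-11, limma), and Plk1 and Plk3 were not called.

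None of 6 neuron markers was called in R6/2 against WT, with a median difference of -0.18 and means per array of 11.94 to 12.08 against 12.11 to 12.27 in WT, so that neuron markers as a group were also lower on every R6/2 array. The same held for the 5 astrocyte markers, none of them called, with a median of -0.28 and means per array of 10.11 to 10.25 against 10.35 to 10.55 in WT. None of the 5 microglia, 5 endothelial and pericyte, 4 choroid plexus and 7 olfactory bulb markers was called in R6/2 against WT, and 1 of 4 oligodendrocyte markers was. Striatum markers moved with the members: 4 of 4 fell in R6/2 against WT, with a median of -0.69 and means per array of 7.54 to 8.65 against 8.15 to 9.34, and 4 of 4 fell in Dble::R6/2 against Hdac4HET. Of 5 hippocampus markers 2 fell in R6/2 against WT, where 3.3% of all genes were called lower. The part of neurons, astrocytes, striatal or hippocampal tissue in the members' values was not tested. Leaving out the arrays with raised bulb markers, or the arrays whose sex-linked genes went against the label, left the counts of called members as they were, at 8 and 10 for the transgene without and with the null allele and at 0 for the null allele on either background.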

How the data were processed

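Cortical RNA was hybridised by the authors to 37 Affymetrix mouse genome arrays. The authors deposited log2 levels per probe set. The authors excluded chips of poor quality, and the study's methods count fewer WT, Hdac4HET and Dble::R6/2 mice than the arrays used here. Details of summarisation and normalisation were not given in the sources used here. Symbols were updated to RefSeq (GRCm38.p6), after which 34945 probe sets had 1 symbol, 932 several and 9160 none. The 4 genotype means were fitted over all arrays with limma 3.58.1 (lmFit and eBayes with trend, R 4.3.3), p was adjusted by Benjamini-Hochberg over 45037 probe sets, and calls needed adjusted p under 0.05 and more than 1.3-fold. Interactions came from the same fit or, for labelled sex, from 8 means. Calls were tested on simulated data. Array values carry no read depth, and the number of arrays limits the precision.

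The members and the gene lists were chosen with earlier results of these data known. Named were all member probe sets, up to 4 called genes of each list with the lowest p in R6/2 against WT (or, in a list without calls, its 2 lowest in p), the 3 genes most like each member, and relatives of Homer1 and Plk2. The brightest probe set stood for a gene. Figures were drawn with matplotlib 3.10.9.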

Additional observations from a re-analysis of the deposited data

Results flagged for a closer look

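Within each genotype, the highest or lowest array of every member probe set was compared with its nearest neighbour by Dixon's test, over 72 groups of 9 or 10 arrays. In 7 groups 1 array stood apart, and chance gives about 5% of groups. Arc in R6/2 was highest in replicate 5 at 10.05, with the next array at 8.81. Homer1 1421768_a_at in Hdac4HET was lowest in replicate 1 at 7.50, with the next at 7.85, and that array also had raised olfactory bulb markers and sex-linked genes against its label. Homer1 1439662_at in WT was highest in replicate 6 at 11.06, with the next at 10.82. Nptx1 1422130_at in R6/2 was highest in replicate 8 at 10.01, with the next at 9.79, and the Nptxr/Npcd probe set 1434270_at was lowest on that same array at 10.85, with the next at 11.06. Plk2 1427005_at in R6/2 was lowest in replicate 6 at 10.71, with the next at 10.94. The Nptxr/Npcd probe set 1450147_at in Dble::R6/2 was lowest in replicate 2 at 6.60, with the next at 6.83.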

How the results depend on the processing

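The counts of called members in R6/2 against WT (8) and Dble::R6/2 against R6/2 (0) stayed within 1.5 times under each of the alternatives run, at 6 to 12 and at 0. In Dble::R6/2 against Hdac4HET the count fell from 10 to 6 when 30% lower was read as a level below 0.7 of Hdac4HET, because several falls lie near the threshold. In Hdac4HET against WT the count went from 0 to 1 with array quality weights, and the transgene by null allele interaction likewise from 0 to 1 with labelled sex as a covariate and with array quality weights. The probe set gained was Ptgs2 1417263_at each time, and the cause was not tested. Leaving out 1 array at a time gave 8 to 8 for R6/2 against WT, 0 to 1 for Hdac4HET against WT, 0 to 0 for Dble::R6/2 against R6/2, 8 to 11 for Dble::R6/2 against Hdac4HET, 0 to 1 for the transgene by null allele interaction and 0 to 0 for that with labelled sex. Ptgs2 1417263_at was called in Hdac4HET against WT without WT replicate 9 (-0.48), Hdac4HET replicate 2 (-0.45) or Hdac4HET replicate 3 (-0.42). Its transgene by null allele interaction was called without WT replicate 2, 6 or 9, Hdac4HET replicate 2 or 3, R6/2 replicate 4 or 6, or Dble::R6/2 replicate 6, at adjusted p of 0.0229 to 0.04998 (limma). No direction of a called value was reversed. With the replicate number as a block the 4 comparisons gave 8, 0, 0 and 10 called members, and the interactions 0. The numbers did not pair the samples: 54 same-numbered pairs correlated at -0.27 to 0.22, and 3 of 37 arrays matched best an array of their own number.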
